A study of Homo sapiens with 15 samples.

Results

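The genes described here supply deoxynucleotides or act on DNA at the replication fork: TYMS, RRM1, RRM2, PCNA, FEN1, EXO1 and UNG. They were chosen by name, as the probe sets whose symbol in the platform annotation is one of these 7, and each symbol had 1 probe set. They are 7 of the 14675 genes that could be named on the array. PCNA is a clamp rather than an enzyme, and UNG is a repair enzyme that also works behind the fork.

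A dividing cell must make deoxynucleotides as fast as its polymerases use them. Ribonucleotide reductase turns ribonucleotides into deoxyribonucleotides, and thymidylate synthase makes the thymidine nucleotide that occurs in DNA only. At the fork, the ring-shaped clamp PCNA holds polymerases on the template and recruits the nucleases and glycosylases that trim and correct the new strand. In cultured human cells the transcripts of these genes are well known to be high when cells enter and pass through S phase and low when cells leave the cell cycle, and many of them are regulated by the E2F family of transcription factors.

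The cells were of the human line H1975, long established from a non-small cell lung cancer, deprived of serum overnight and then given epidermal growth factor (EGF) at 50 ng/ml in serum-free medium. RNA of the whole culture was read on 15 GeneChip Human Gene 2.0 ST arrays over 10 times: 0.5 h had 2, 24 h and 48 h had 3 each, and the times of 1, 2, 4, 6, 8, 12 and 18 h had 1 each. Every array came from cells that had received EGF, and cells without EGF were not analysed here, so time after EGF and time without serum cannot be told apart. The values are SCAN scores, which the authors computed from each array by itself. A score places a probe set relative to the others of its own array on a log-like scale, and because 1 unit is not shown to be a fixed fold, differences are given in SCAN units and no fold is given.

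All 7 transcripts were lower on every array of 18 h and 24 h than on any array through 12 h, and were lowest at 48 h. UNG varied most among the arrays through 12 h, between 1.45 and 1.70. At 48 h minus 0.5 h, TYMS fell by 0.92, EXO1 by 0.80, PCNA by 0.71, RRM2 by 0.62, UNG by 0.47, RRM1 by 0.44 and FEN1 by 0.43 SCAN units, each with a standard error (SE) of 0.029 to 0.036. All 7 passed the test used throughout, a two-sided moderated test of limma with time as a 10-level factor, adjusted by Benjamini-Hochberg across the 14675 genes and called at an adjusted p under 0.05. Of all genes, 13.1% were called lower in this comparison and 15.5% higher. The median difference was -0.62 over the 7 genes and 0.0013 over all genes. The labels do not say whether arrays of the same time came from separate cultures, so these p-values measure only the spread between arrays. In RNA of a whole culture, fewer cells that express a gene and less of its RNA per cell cannot be told apart.

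**Figure D1:**
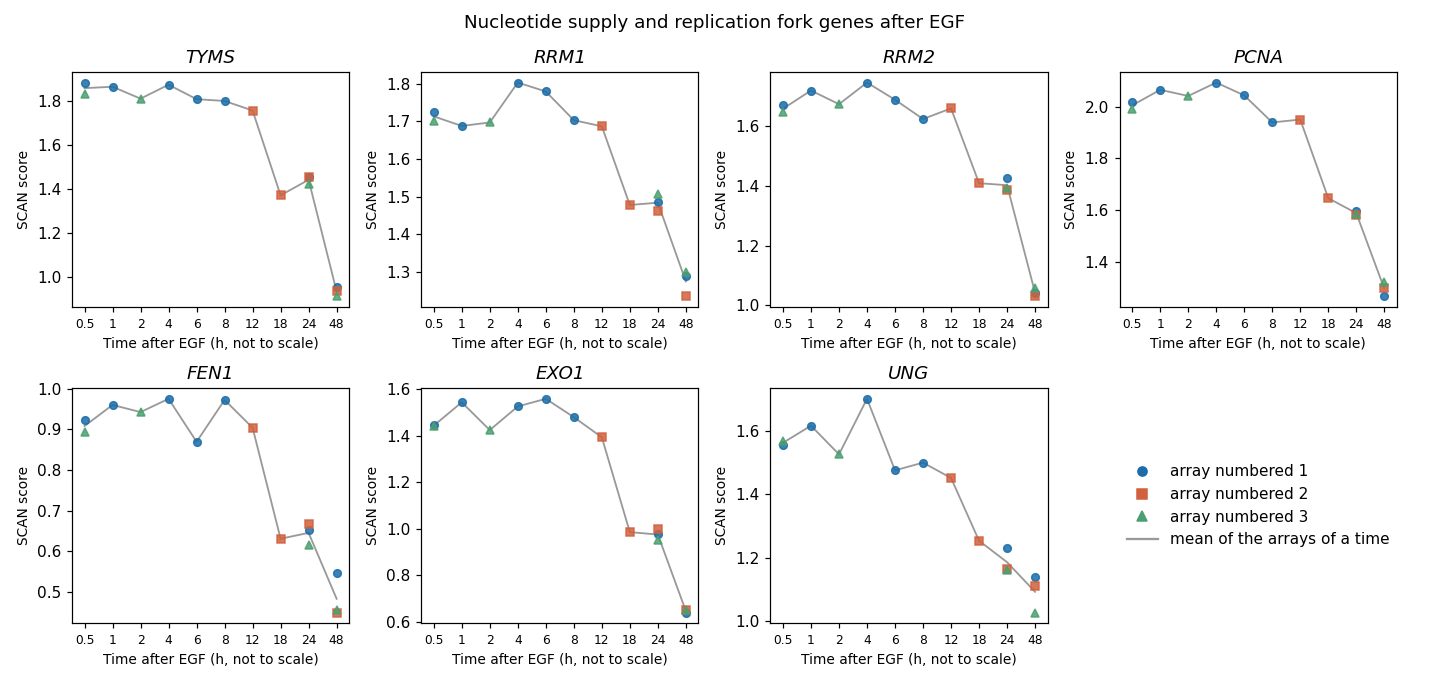
SCAN score (y axis, a separate range in each panel, not starting at 0) of the 7 genes in each of the 15 arrays, against time after EGF in hours (x axis, not to scale). Marks give the replicate number of the array and the line joins the means of the times. In every panel the 7 arrays of 18 to 48 h lie below the 8 arrays of 0.5 to 12 h, and the 48 h arrays are the lowest.

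TYMS (probe set 16850477) encodes thymidylate synthase, which methylates dUMP to dTMP and is the target of fluoropyrimidine drugs. Its score was 1.88 and 1.83 at 0.5 h, 1.86 at 1 h, 1.81 at 2 h, 1.87 at 4 h, 1.81 at 6 h, 1.80 at 8 h, 1.76 at 12 h, 1.37 at 18 h, 1.45, 1.45 and 1.42 at 24 h, and 0.95, 0.94 and 0.91 at 48 h. The arrays fell into 3 levels that did not overlap, one through 12 h, one at 18 h and 24 h and one at 48 h. The mean was 0.94 ± 0.021 at 48 h (SD, n = 3), against 1.86 ± 0.036 at 0.5 h (SD, n = 2), a difference of -0.92 ± 0.030 (SE, limma adjusted p = 2.4e-13). TYMS had the largest difference of the 7 genes here, and also the largest at 48 h minus 24 h, -0.51 ± 0.027 (adjusted p = 1.9e-10). The genes TYMSOS and ENOSF1 overlap TYMS in the RefSeq annotation, and whether its probe set reads their transcripts was not tested.

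RRM1 (probe set 16721126) encodes the large subunit of ribonucleotide reductase, which holds the catalytic and the regulatory sites. Its score was 1.72 and 1.70 at 0.5 h, 1.69 at 1 h, 1.70 at 2 h, 1.80 at 4 h, 1.78 at 6 h, 1.70 at 8 h, 1.69 at 12 h, 1.48 at 18 h, 1.49, 1.46 and 1.51 at 24 h, and 1.29, 1.24 and 1.30 at 48 h. The 4 h and 6 h arrays were the highest, and the 1 h and 12 h arrays the lowest of those through 12 h. RRM1 averaged 1.27 ± 0.035 at 48 h (SD, n = 3) and 1.71 ± 0.016 at 0.5 h (SD, n = 2), which differed by -0.44 ± 0.031 (SE, limma adjusted p = 3.9e-09).

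RRM2 (probe set 16877019) encodes the small subunit of the same enzyme, which carries the radical that starts the reaction and whose amount is known to follow the cell cycle more closely than that of the large subunit. Its score was 1.67 and 1.65 at 0.5 h, 1.72 at 1 h, 1.67 at 2 h, 1.75 at 4 h, 1.69 at 6 h, 1.62 at 8 h, 1.66 at 12 h, 1.41 at 18 h, 1.43, 1.39 and 1.39 at 24 h, and 1.04, 1.03 and 1.06 at 48 h. The 3 arrays at 48 h lay close together and far below those of 24 h. RRM2 averaged 1.04 ± 0.014 at 48 h (SD, n = 3), against 1.66 ± 0.018 at 0.5 h (SD, n = 2), a difference of -0.62 ± 0.030 (SE, limma adjusted p = 1.7e-11). RRM2B, the small subunit that p53 induces and that supplies cells outside S phase, had a score of 1.14 at 48 h and 1.06 at 0.5 h, and its difference of 0.070 ± 0.033 did not pass the test (adjusted p = 0.13). RRM2B was picked out after its values were seen. The genes MIR4261, LOC105373424 and LOC124906144 overlap RRM2 in the RefSeq annotation. Whether the RRM2 probe set reads their transcripts was not tested.

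PCNA (probe set 16916958) encodes the sliding clamp, on which DNA polymerases, FEN1 and many repair proteins dock. Its score was 2.02 and 1.99 at 0.5 h, 2.06 at 1 h, 2.04 at 2 h, 2.09 at 4 h, 2.04 at 6 h, 1.94 at 8 h, 1.95 at 12 h, 1.65 at 18 h, 1.60, 1.58 and 1.59 at 24 h, and 1.27, 1.30 and 1.32 at 48 h. The 8 h and 12 h arrays were the lowest of those through 12 h, and 18 h lay just above 24 h. The mean was 1.30 ± 0.028 at 48 h (SD, n = 3), against 2.00 ± 0.021 at 0.5 h (SD, n = 2), a difference of -0.71 ± 0.030 (SE, limma adjusted p = 3e-12). The long non-coding gene PCNA-AS1 lies within PCNA on the other strand and has a probe set of its own. PCNA-AS1 averaged 0.14 at 48 h and 0.50 at 0.5 h, a difference of -0.36 ± 0.037 (adjusted p = 4.8e-07). Whether its probe set also reads PCNA transcripts was not tested. The small nucleolar RNA gene LOC124900464 overlaps PCNA too, and whether the PCNA probe set reads it was not tested.

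FEN1 (probe set 16725735) encodes the flap endonuclease that removes the primer end of each Okazaki fragment while bound to PCNA. Its score was 0.92 and 0.89 at 0.5 h, 0.96 at 1 h, 0.94 at 2 h, 0.98 at 4 h, 0.87 at 6 h, 0.97 at 8 h, 0.90 at 12 h, 0.63 at 18 h, 0.65, 0.67 and 0.61 at 24 h, and 0.55, 0.45 and 0.45 at 48 h. At 48 h 1 array stood apart from the other two, but all 3 were below every array of 18 h and 24 h. FEN1 averaged 0.48 ± 0.055 at 48 h (SD, n = 3) and 0.91 ± 0.020 at 0.5 h (SD, n = 2), with a difference of -0.43 ± 0.034 (SE, limma adjusted p = 2.1e-08).

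EXO1 (probe set 16679411) encodes an exonuclease of mismatch repair, which removes the strand that holds the error, and of the resection of broken ends. Its score was 1.44 and 1.44 at 0.5 h, 1.54 at 1 h, 1.42 at 2 h, 1.52 at 4 h, 1.56 at 6 h, 1.48 at 8 h, 1.39 at 12 h, 0.99 at 18 h, 0.98, 1.00 and 0.95 at 24 h, and 0.64, 0.65 and 0.65 at 48 h. The 4 arrays of 18 h and 24 h formed a plateau between those through 12 h and those at 48 h, with no overlap. The mean was 0.65 ± 0.0067 at 48 h (SD, n = 3), against 1.44 ± 0.0011 at 0.5 h (SD, n = 2), a difference of -0.80 ± 0.029 (SE, limma adjusted p = 5.8e-13).

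UNG (probe set 16756627) encodes the uracil-DNA glycosylase, whose nuclear form cuts out uracil that polymerases insert in place of thymine. Its score was 1.56 and 1.57 at 0.5 h, 1.62 at 1 h, 1.53 at 2 h, 1.70 at 4 h, 1.48 at 6 h, 1.5 at 8 h, 1.45 at 12 h, 1.25 at 18 h, 1.23, 1.17 and 1.16 at 24 h, and 1.14, 1.11 and 1.03 at 48 h. The single 4 h array was the highest, and the 24 h and 48 h arrays nearly met. UNG averaged 1.09 ± 0.059 at 48 h (SD, n = 3) and 1.56 ± 0.0077 at 0.5 h (SD, n = 2), which differed by -0.47 ± 0.036 (SE, limma adjusted p = 1e-08). The differences of 4 h minus 2 h, 0.18 ± 0.055, and of 6 h minus 4 h, -0.23 ± 0.055, were the largest of any of the 7 genes between neighbouring times before 12 h, and neither passed the test (adjusted p = 0.12 and 0.29).

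Because the 7 genes moved together, the sequence at their starts is described here. RefSeq windows of 300 bases, reaching 250 bases before each gene's start and 50 after it in assembly GRCh38.p14, were found for all 7 genes, with 11 windows in all since EXO1, RRM2, UNG and PCNA have a second one. Both strands were searched for the E2F words TTTCCCGC, TTTCGCGC, TTTGCCGC and TTTGGCGC. One word each was found in a window of EXO1, UNG, TYMS and PCNA, and none in the windows of RRM1, RRM2 and FEN1. Among all 35116 windows, 3.3% held such a word, and among the 22198 windows of protein-coding genes 4.1% did. The stretches around the 4 words are shown because they hold all the matches found, with the word in capitals and the gene's own strand written.
EXO1, chr1:241848197-241848226, + strand: aaaggtcagccTTTCGCGCgctgtgtaggc
UNG, chr12:109098098-109098127, + strand: gagggaggtttTTTGCCGCgaaaagaccac
TYMS, chr18:657603-657632, + strand: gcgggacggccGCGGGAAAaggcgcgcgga
PCNA, chr20:5126663-5126692, - strand: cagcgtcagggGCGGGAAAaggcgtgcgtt
The first base of the word lay 63 bases before the second of the 2 RefSeq starts in UNG, whose window at the first start held none, 59 before the first start in PCNA, 39 before the start in TYMS and 4 after the first start in EXO1. In TYMS and PCNA the word was on the opposite strand, and both stretches share the run GCGGGAAAaggcg. In PCNA the word overlapped a GGGCGG word, the core of a GC box.

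The box CCAAT, bound by the factor NF-Y, was also searched on both strands. RRM2, which held no E2F word, had 3 copies in its first window, each followed by the same 8 bases, gggaaggg, and the stretch is shown for this repeat, with the boxes in capitals.
RRM2, chr2:10122606-10122687, + strand: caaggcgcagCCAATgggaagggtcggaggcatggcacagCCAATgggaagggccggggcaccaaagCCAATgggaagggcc
The 3 boxes began 123, 93 and 66 bases before the start. PCNA, in its first window, and UNG, in its second, also had 3 CCAAT words each. The window of RRM1 and the first of UNG held 1 each. The second window of RRM2 held 1 and that of PCNA 2. The windows of EXO1, FEN1 and TYMS held none. Of all windows 34.6% held at least 1 such word and 3.26% held 3 or more. The word GGGCGG was also searched. It lay in the first window of EXO1, the only one of RRM1, the second of RRM2 and both of UNG and PCNA. Of all windows 45.0% held it, and of the windows of protein-coding genes 56.3% did. The words TTTGAA and TTCGAA were searched too, and 1 of them lay in a window of RRM1 and of UNG, against 16.4% of all windows. These are matches of letters only, and binding to them was not measured here.

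The next question was when the change took place. In the mean over 4, 6, 8 and 12 h minus the mean over 0.5, 1 and 2 h, the 7 differences lay between -0.036 (UNG) and 0.044 (RRM1), and 0 of 7 passed the test (adjusted p between 0.36 and 0.95), while 6.62% of all genes were called in either direction. In the mean over 18, 24 and 48 h minus the mean over 4 to 12 h, all 7 were lower, by 0.33 (RRM1) to 0.62 (EXO1), where 13.2% of all genes were called lower. The highest of the 7 arrays of 18 to 48 h was below the lowest of the 8 arrays of 0.5 to 12 h for each of the 7 genes, for instance at 1.00 against 1.39 for EXO1 and at 1.25 against 1.45 for UNG. Of all genes, 4.54% had no such overlap in this direction.

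Between neighbouring times, the only steps in which any of the 7 passed the test were 12 to 18 h and 24 to 48 h. In the 6 steps up to 12 h, 0 of 7 were called in each, where the shares of all genes called in either direction were 0.273% at 0.5 to 1 h, 0.641% at 1 to 2 h, 1.96% at 2 to 4 h, 0.0136% at 4 to 6 h, 0% at 6 to 8 h and 0.075% at 8 to 12 h. From 12 h on, 18 h minus 12 h gave -0.41 ± 0.045 for EXO1 (adjusted p = 9.5e-05), -0.38 ± 0.047 for TYMS (2.4e-04), -0.30 ± 0.046 for PCNA (0.0015), -0.27 ± 0.053 for FEN1 (0.0090), -0.25 ± 0.046 for RRM2 (0.0056) and -0.21 ± 0.048 for RRM1 (0.030). The UNG difference of -0.20 ± 0.055 did not pass (adjusted p = 0.074). Thus 6 of 7 were called lower in a step in which 1.44% of all genes were. The step rests on 1 array at 18 h and 1 at 12 h, each taken to vary like the replicated times. With other arrays in their place, 24 h minus 12 h gave 7 of 7 lower, by 0.20 (RRM1) to 0.42 (EXO1), where 3.57% of all genes were called in either direction. Likewise 18 h minus 8 h gave 7 of 7 lower, by 0.21 (RRM2) to 0.49 (EXO1), where 4.31% of all genes were called in either direction. These replacements were chosen after seeing the data. After quantile normalization between arrays, the RRM1 difference of 18 h minus 12 h was -0.18 and no longer passed (adjusted p = 0.058).

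At 24 h minus 18 h, none of the 7 was called (differences of -0.068 for UNG to 0.070 for TYMS, adjusted p between 0.82 and 0.99). Of all genes 0% were called by limma in this step, and 911 of 14675 had an unadjusted p under 0.05.

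**Figure D2:**
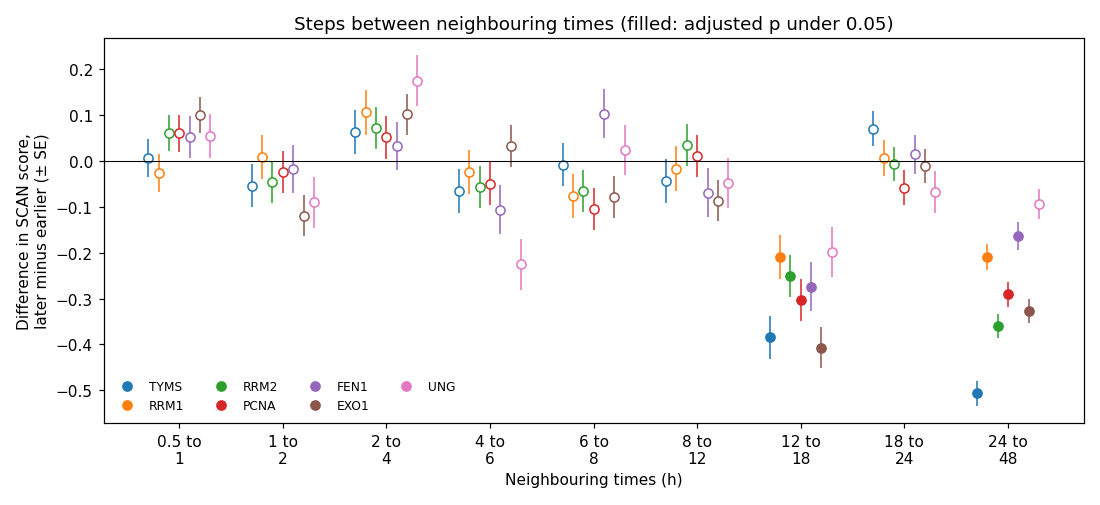
Difference in SCAN score between each time and the time before it (y axis, later minus earlier, bars ± SE of limma) for the 7 genes at the 9 steps (x axis, hours). Filled marks passed the test at an adjusted p under 0.05. Filled marks appear at 12 to 18 h (6 of 7) and at 24 to 48 h (6 of 7) only.

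At 24 h minus 0.5 h all 7 were lower, by 0.47 (EXO1), 0.42 (PCNA), 0.42 (TYMS), 0.38 (UNG), 0.26 (FEN1), 0.26 (RRM2) and 0.23 (RRM1), with adjusted p between 6.2e-09 and 4.8e-05, while 7.26% of all genes were called lower. Without the first array of 0.5 h the count of all genes called in either direction was 1472 in place of 2526, and all 7 were still called. At 48 h minus 24 h, 6 of 7 were lower, and 6.68% of all genes were. These were TYMS (-0.51), RRM2 (-0.36), EXO1 (-0.33), PCNA (-0.29), RRM1 (-0.21) and FEN1 (-0.16). UNG had a difference of -0.094 ± 0.032 and an adjusted p of 0.065. Without the first array of 48 h its difference was -0.12 and passed, with an adjusted p of 0.040. Over the leave-one-out and other fits of this contrast, the UNG difference ranged between -0.12 and -0.061, with a highest adjusted p of 0.29 without the third array of 48 h.

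The comparisons at 24 h and at 48 h share the 0.5 h arrays, so their values are set side by side and no more. Of the whole difference between 48 h and 0.5 h, the share already present at 12 h was between -0.17% (RRM2) and 23.6% (UNG), with SEs of 4.3 to 10.7 percentage points. At 18 h, where 1 array was measured, the share was 65.7 ± 9.1% for UNG (SE), 65.2 ± 9.6% for FEN1, 57.5 ± 4.4% for EXO1, 53.7 ± 8.5% for RRM1, 52.7 ± 4.0% for TYMS, 50.6 ± 5.1% for PCNA and 40.5 ± 5.8% for RRM2. At 24 h it was 80.1 ± 6.3% for UNG, 61.9 ± 6.4% for FEN1, 58.8 ± 3.4% for PCNA, 58.8 ± 2.9% for EXO1, 52.3 ± 5.7% for RRM1, 45.1 ± 2.7% for TYMS and 41.6 ± 3.9% for RRM2. UNG stood highest and RRM2 lowest at both of these times, with UNG level with FEN1 at 18 h, and differences between the shares were not tested.

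**Figure D3:**
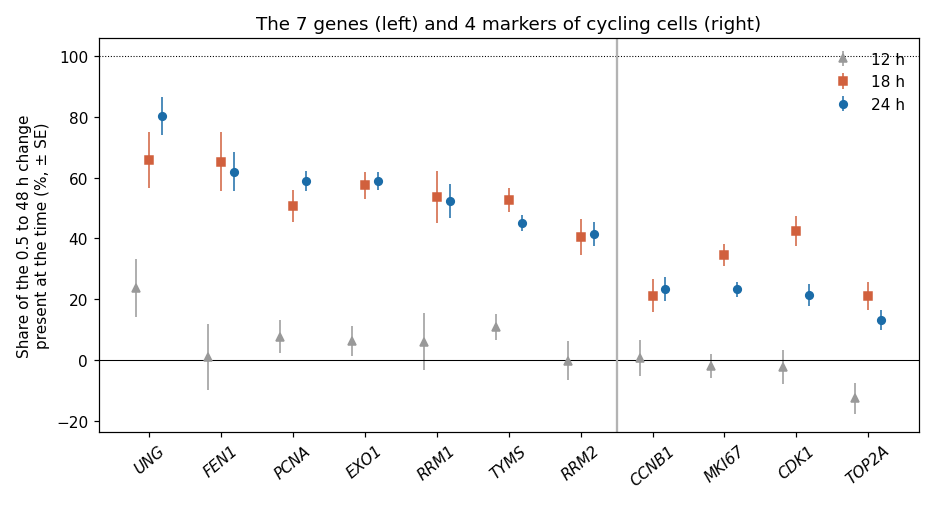
Share of the difference between 48 h and 0.5 h that was present at 12, 18 and 24 h (y axis, %, bars ± SE), for the 7 genes and for 4 markers of cycling cells to the right of the grey line (x axis). At 24 h the 7 genes lie between 41.6% (RRM2) and 80.1% (UNG), and the 4 markers between 13.2% (TOP2A) and 23.3% (CCNB1). At 18 h, with 1 array, the 7 genes lie between 40.5% (RRM2) and 65.7% (UNG), and the 4 markers between 21.2% (TOP2A) and 42.4% (CDK1).

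The order of the levels across the 10 times was much alike in the 7 genes. The 7 times through 12 h came first in each, in an order that differed from gene to gene, and neighbours in that order were at most 1.58 SE apart. Sorting keeps neighbours close, and the times through 12 h as a whole spread wider. In UNG they ran from 1.70 at 4 h to 1.45 at 12 h, with an SE of 0.055 for a difference between single arrays. Below the lowest of these times lay a gap of 3.59 SE (UNG) to 8.99 SE (EXO1). Below it came 18 h and 24 h, at most 1.83 SE apart, and 48 h was the lowest in all 7. The gap above 48 h was 2.93 SE in UNG and larger in the other 6. Each time course passed limma's F test on a smooth curve over the logarithm of time (F between 65.6 for FEN1 and 235 for PCNA, adjusted p of 2.5e-09 or lower), as did 33.9% of all genes. A peak score was also taken, the largest distance of any time's mean from the mean over all times. It exceeded 2 times its noise threshold in all 7 genes and lay at 48 h in each, with values of 0.34 (UNG) to 0.72 (TYMS) against doubled thresholds of 0.129 to 0.144, and 15.6% of all genes exceeded theirs.

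Across the 10 time means, the correlation between any 2 of the 7 genes was between 0.924 (RRM2 with UNG) and 0.99 (TYMS with RRM2). Among 1245 other genes with a range of at least 0.3, those most like the mean profile of the 7 were MCM5 (Pearson's r = 0.998), MCM2 (0.995), UHRF1 (0.995), CDC45 (0.995) and GINS2 (0.995). MCM5, MCM2, CDC45 and GINS2 encode parts of the replicative helicase, and UHRF1 is a partner of the maintenance methylase. MCM5 had a mean score of 1.69 at 0.5 h, 1.25 at 24 h and 0.95 at 48 h. For single genes, the closest were CENPM for TYMS (0.996), CDC45 for RRM1 (0.993), GINS2 for RRM2 (0.992), MCM5 for PCNA (0.996), PCNA-AS1 for FEN1 (0.991), MCM2 for EXO1 (0.998) and PRPF4 for UNG (0.978). These values describe 10 points that all the genes share and that hold the falls between 12 and 18 h and between 24 and 48 h.

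Around the 7 genes, most measured genes of DNA copying were also lower at 48 h minus 0.5 h, a comparison in which 13.1% of all genes were called lower and 15.5% higher. Of 34 listed polymerases, clamp loaders and fork proteins, 7 were measured under a name, and 6 were lower and none higher, with a median difference of -0.61 against 0.0013 over all genes. They included DSCC1, a clamp loader subunit (-0.70 ± 0.038), WDHD1, which ties the polymerase to the helicase (-0.66 ± 0.033), and the fork protection proteins TIMELESS (-0.62 ± 0.033) and CLSPN (-0.61 ± 0.032), with adjusted p between 2.7e-11 and 8.8e-11. TOP1, the topoisomerase that relieves twist ahead of the fork, had a difference of 0.072 ± 0.032 and did not pass (adjusted p = 0.11). Of 13 listed partners and regulators of PCNA, 7 were measured and 6 were lower and none higher, with a median of -0.35, again beside 13.1% lower over all genes. UHRF1 differed by -0.83, USP1, which removes ubiquitin from PCNA, by -0.48, PCLAF, a PCNA-binding factor, by -0.48 and DNMT1, the maintenance methylase, by -0.35. WDR48, the cofactor of USP1, had a difference of -0.059 (adjusted p = 0.18).

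The rest of nucleotide metabolism held genes called lower, a few called higher and genes not called. Of 23 other listed genes of deoxynucleotide supply, 13 were measured, 6 were lower and 2 higher, with a median of -0.074, beside 13.1% of all genes lower and 15.5% higher. The count of higher genes was thus near the share over all genes. Lower were among others DTYMK, the kinase that acts on the product of TYMS (-0.33 ± 0.038), SHMT1, which feeds the folate cycle of TYMS (-0.33 ± 0.035), NUDT1, which removes oxidized nucleotides (-0.32 ± 0.036), and DCTPP1, which removes modified dCTP (-0.28 ± 0.035). The differences of SHMT2, the mitochondrial counterpart of SHMT1 (-0.00084), and DCTD, which makes the substrate of TYMS (0.013), did not pass (adjusted p = 0.99 and 0.81). The 2 higher genes, named after their values were seen, were CDA (0.11), a deaminase of the salvage route, and SAMHD1 (0.098), which breaks down deoxynucleotide triphosphates. Of 17 listed genes of ribonucleotide synthesis, 13 were measured, 10 were lower and 1 higher, with a median of -0.18, beside the same shares of 13.1% and 15.5% over all genes. PRPS1 (-0.43 ± 0.032) and PRPS2 (-0.33 ± 0.029) make the activated ribose for all nucleotides, CTPS1 (-0.28 ± 0.034) makes CTP, and PFAS (-0.23 ± 0.034) acts in purine synthesis. The 1 higher gene, also named afterwards, was IMPDH1 (0.14 ± 0.030), a dehydrogenase of guanine nucleotide synthesis, and DHODH and CTPS2 had differences of -0.040 and -0.039 that did not pass.

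Among 23 listed genes of base excision and mismatch repair, the pathways of UNG and EXO1, 18 were measured, 6 were lower and 1 higher, with a median of -0.068, while 13.1% of all genes were called lower and 15.5% higher. The glycosylase NEIL3 had the largest difference of the list (-0.58 ± 0.031, adjusted p = 7.6e-11), followed by MSH6, which recognizes mismatches (-0.27), APEX2, an endonuclease that binds PCNA (-0.23), and PARP1, which senses strand breaks (-0.13). TDG, a glycosylase for thymine and uracil mispaired with guanine, and APEX1, the main endonuclease at the sites that UNG leaves, had differences of 0.0078 and 0.0079 (adjusted p = 0.89 for each).

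**Figure D4:**
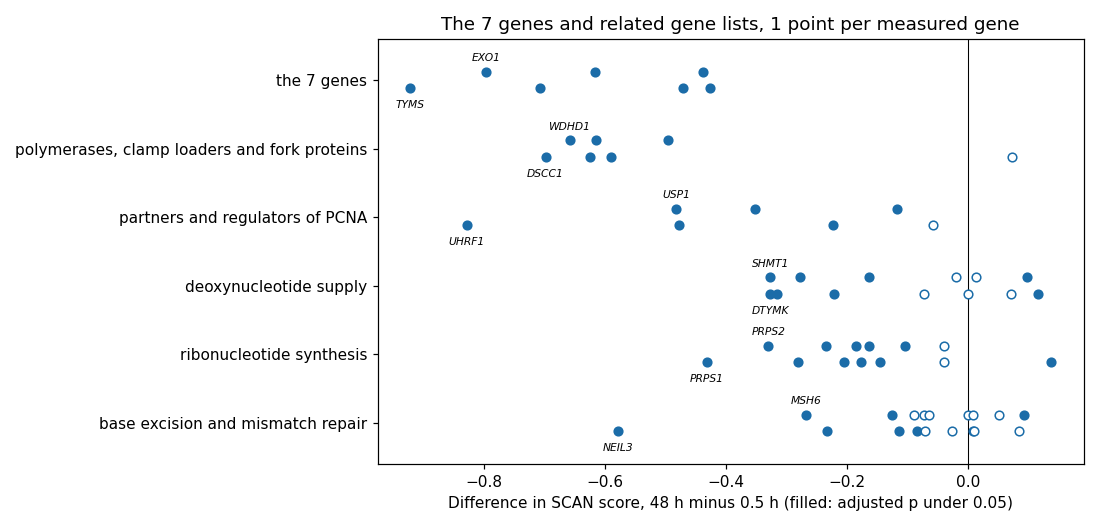
Difference in SCAN score of 48 h minus 0.5 h (x axis) for each measured gene of the 7 genes and of 5 related lists (rows), with filled marks for an adjusted p under 0.05 and the 2 lowest genes of each row named. The 7 genes lie between -0.92 and -0.43, all to the left of 0, while the repair list centres on a median of -0.068.

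Levels of markers of cycling cells and of cell types were also read. All 4 markers of cycling cells were lower at 48 h minus 0.5 h, MKI67 by 0.98, TOP2A by 0.85, CCNB1 by 0.79 and CDK1 by 0.77. Of all genes, 13.1% were called lower in this comparison and 15.5% higher. The summed score of the 4 markers was 8.79 to 8.91 at 0.5 h, 8.12 to 8.22 at 24 h and 5.45 to 5.46 at 48 h. The markers' shares of the 0.5 to 48 h change at 24 h were 23.2% for MKI67, 13.2% for TOP2A, 23.3% for CCNB1 and 21.3% for CDK1. At 18 h, where 1 array was measured, they were 34.5% for MKI67, 21.2% for TOP2A, 21.2% for CCNB1 and 42.4% for CDK1. The differences of 18 h minus 12 h were -0.36 for MKI67, -0.29 for TOP2A, -0.16 for CCNB1 and -0.34 for CDK1. The part of cycling cells in the results on the 7 genes was not tested. Of 8 epithelial markers 6 were measured, with a summed score of 9.36 to 9.73 at 0.5 h, 10.1 to 10.3 at 24 h and 10.7 to 11.2 at 48 h. At 48 h minus 0.5 h 3 of these 6 were higher and 1 lower, beside the same shares of 15.5% higher and 13.1% lower over all genes. NAPSA (1.24) made up most of the rise of the sum, NKX2-1 (0.20) and EPCAM (0.078) were the other two higher ones, KRT7 (-0.17) was lower, and KRT18 (0.054, adjusted p = 0.23) and KRT8 (0.023, adjusted p = 0.70) did not pass. For blood cells 2 of 6 listed markers were measured (CD14, LYZ), and for fibroblasts 2 of 6 (DCN, LUM). For endothelium 2 of 4 were measured (VWF, CLDN5). Scores of these markers lay between -0.13 and 0.17 on every array.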

How the data were processed

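The authors normalized each array by itself with SCAN (Single Channel Array Normalization), mapped probes with the manufacturer's annotation and removed outlying arrays, and the deposited values are SCAN scores. No source used here states its version. The design text lists no 18 h sample, and the array labelled 18 h was used as labelled. Of 39937 probe sets, 15426 carried 1 gene symbol in the platform annotation and 24511 none. For each symbol the probe set of highest mean over the 15 arrays was used, which gave 14675 genes. No filter on dim genes and no step between arrays was applied.

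The linear models of limma 3.58.1 (R 4.3.3) were fitted to the scores with time as a 10-level factor, 5 residual degrees of freedom and Benjamini-Hochberg adjustment, and tested on simulated data first. The number of arrays limits the precision. The SE of a share of change follows from the same fit. The 7 genes and the lists were chosen with earlier results of these data known. Named were all 7 genes, from each list up to 4 called genes with the largest difference and up to 2 uncalled ones of above-median score with the smallest, and the genes most like the 7 in their 10 time means. Listed genes without a named probe set were not analysed here. Alternatives covered normalization between arrays, a filter on dim genes, all probe sets, the prior variance, the replicate number, the windows, the spline, the peak score and each array left out. The pathway lists were described by counts and medians only. The marker lists were those of lung epithelium, blood cells, fibroblasts, endothelium and cycling cells.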

Additional observations from a re-analysis of the deposited data

How the results depend on the processing

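The count of the 7 genes called was the same, or within 1.5 times, in every comparison under every alternative run. Single calls changed for UNG and RRM1 only. At 48 h minus 24 h UNG passed with the genes of lowest mean score left out (adjusted p = 0.0498), with a trended and robust prior (0.035) and without the first array of 48 h. At 18 h minus 12 h UNG passed after centring (0.0495), with that prior (0.031) and in all 3 replacements of arrays. RRM1 lost this call under quantile normalization, as given above.

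Counts over all genes moved more. At 4 to 12 h minus 0.5 to 2 h the count was 971, against 232 with window as a factor and 183 with shifted windows (0.5 to 4, 6 to 8 and 12 to 48 h). At 18 to 48 h minus 4 to 12 h it was 3582, against 2215 with shifted windows and 2261 without the 48 h arrays. For the step of 0.5 to 1 h it was 40, with 76 under the trended and robust prior. Under that prior it was 4 in place of 2 at 4 to 6 h, 3 in place of 0 at 6 to 8 h, 46 in place of 11 at 8 to 12 h and 1 in place of 0 at 18 to 24 h. At 8 to 12 h quantile normalization gave 3 and centring 4. At 12 to 18 h the count was 319, with 633 for 18 h minus 8 h, 524 for 24 h minus 12 h and 1183 for both pairs joined. The time course count was 4970, with 2708 without the 48 h arrays. The peak score count was 2294, with 3968 against the 0.5 h mean and 968 with the 0.99 quantile. Leaving out 1 array at a time gave 1472 to 2526 at 24 h minus 0.5 h, 11 to 42 at 0.5 to 1 h, 2 to 4 at 4 to 6 h and 7 to 17 at 8 to 12 h. The cause of these shifts was not tested.

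For arrays with the same replicate number, deviations from the mean of their time had correlations of -0.030 to 0.030. Between 24 h and 48 h these were 0.010, 0.028 and 0.030, and those of unlike numbers were -0.024 to -0.0034. Deviations from the mean of a time cancel out, which ties the values of like and unlike numbers together. With the 2 arrays of 0.5 h the values are mirror images by construction. Times with 1 array could not be checked, so whether equal numbers mark arrays that belong together was not settled. With the replicate number as a block, the count over all genes was 561 at 4 to 12 h minus 0.5 to 2 h, 19 at 0.5 to 1 h, 33 in place of 94 at 1 to 2 h, 102 in place of 287 at 2 to 4 h, 0 at 4 to 6 h and 3 at 8 to 12 h, and no call on the 7 genes changed.

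Replicates existed at 3 times only. At 12 h and 18 h there was 1 array each, both with the same number, so the step between these times rests on 2 arrays.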
